A study of Mus musculus with 6 samples.

Results

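The regions described here are the H2Bub peaks of C2C12 myotubes that overlap no myoblast peak and lie outside chromosomes 10 and 15. H2Bub is histone H2B carrying 1 ubiquitin. Of the 25743 myotube (MT) peaks on chromosomes 1 to 19 and X, 11688 shared no base with a myoblast (MB) peak, and 8521 of these (33.1% of all MT peaks) lay on the other 18 chromosomes. They are called myotube-only peaks below. They covered 2.35 Mb, with a median width of 265 bp (interquartile range 224 to 313 bp). The members were chosen by the MT and MB peak calls, that is, by the reads of both groups in these regions. Every comparison of MT with MB reads inside them is therefore a description. Where a model over all regions called members, the count is printed beside the share called over all regions and serves as no test of the members.

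C2C12 is a mouse myoblast line whose cells fuse into myotubes when serum is reduced. Growing myoblasts were kept in 10% fetal bovine serum (FBS) and taken at about 40% confluency. Myotubes came from confluent cultures held for 96 h in 2% horse serum, with fresh medium after 2 days. Each group had 3 libraries of MNase-digested chromatin, about 85% mononucleosomal per the labels, precipitated with an H2Bub antibody, and no genotype or drug distinguished the groups. The labels write the cells both as C2C12 and as C1C12, and number the libraries without saying that they came from separate cultures. Each library has an antibody lot number of its own in the labels, so lot and sample cannot be told apart. The samples include no input library, so read density could not be compared with chromatin before precipitation. With no gene annotation of the build used, muscle marker genes could not be checked. Any p-value measures the spread between these libraries only, which may be technical.

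Monoubiquitylation of H2B is placed by a ubiquitin ligase complex that works with elongating RNA polymerase II, and it is removed by deubiquitylases, among them a module of the SAGA coactivator. The mark is known from the bodies of transcribed genes, where it helps nucleosomes to be taken apart and rebuilt as the polymerase passes.

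The MT libraries held 8767810 to 14480532 reads and the MB libraries 9293327 to 15903500. Single members were shallow. A member had a median of 14 reads in the 3 MT libraries together (5th to 95th percentile 11 to 22, highest 63) and 5 in the 3 MB libraries (1 to 17, highest 468). A count of 14 has an exact 95% Poisson interval of 7.65 to 23.5 and a count of 5 one of 1.62 to 11.7, so most single members cannot be ranked. Intervals cover counting error only. MT replicate 2 stood apart from the other MT libraries at members near MB peaks and in groups of members, and its values are given wherever that matters.

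Myotube-only peaks carried more reads in myotubes than in myoblasts, but they were not empty in myoblasts. Members took 0.381%, 0.372% and 0.418% of the reads in MT replicates 1, 2 and 3, and 0.158%, 0.169% and 0.177% in MB replicates 1, 2 and 3. The groups did not overlap. Windows of 10 kb without any peak also took a larger share in myotubes, with 3.56 ± 0.109 RPM (reads scaled to the total of the library) per window against 2.12 ± 0.195 in myoblasts (SD, n = 3). To set this aside, the density of reads in members was divided by that of peak-free windows within 250 kb, called the local background. On this scale the MT libraries stood at 3.60, 3.51 and 3.83 and the MB libraries at 2.40, 2.70 and 2.32. The means were 3.65 ± 0.165 in myotubes and 2.47 ± 0.199 in myoblasts (SD, n = 3, over 8515 members). The other 6 members had fewer than 5 peak-free windows nearby.

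Over single members, the 2 distributions overlapped widely. With the 3 libraries of a group summed, the median was 3.70 in myotubes (5th to 95th percentile 2.39 to 6.24) and 1.97 in myoblasts (0.472 to 5.70). Density was at least 2 times the local background in 8426 members (99.0%) in myotubes and in 4174 (49.0%) in myoblasts. In myoblasts 340 members (3.99%) lay below it in all 3 libraries, and 150 of 8521 had no MB read at all. In 1356 members (15.9%) the myoblast density, relative to its background, equalled or passed the myotube density. The absence of an MB peak thus did not mean an absence of MB reads.

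**Figure D1:**
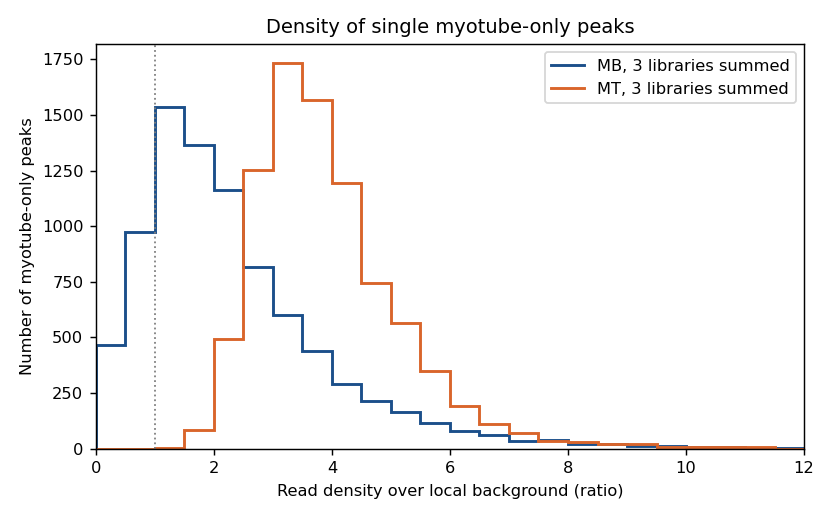
Number of myotube-only peaks (vertical axis) by read density over local background (horizontal axis, bins of 0.5, values of 12 and above not drawn), with the 3 libraries of each group summed; the dotted line marks the local background. The myotube curve peaks between 3 and 3.5, the myoblast curve between 1 and 1.5 with a tail reaching past 5.

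All 3 MT libraries contributed to the members. At least 1 read from each was present in 8198 of 8521 members (96.2%), and density was above the local background in all 3 in 7494 of 8515 (88.0%). A single MT library held over 50% of the summed RPM in 2814 members (33.0%): replicate 1 in 787, replicate 2 in 809 and replicate 3 in 1218. The median member had 4, 4 and 7 reads in MT replicates 1, 2 and 3.

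The myoblast level of members fell with distance to the nearest MB peak, which is itself called from the MB reads. It ranged from 0 bp to 5654 kb with a median of 36.6 kb; 1086 members lay under 1 kb from an MB peak, 1004 at 1 to 5 kb, 1344 at 5 to 20 kb, 2351 at 20 to 100 kb and 2736 at 100 kb or more. Under 1 kb, myoblast density was above myotube density, at 5.35, 6.39 and 4.62 times the local background in MB replicates 1 to 3 against 3.84, 3.05 and 4.00 in MT replicates 1 to 3. It fell to 3.09 ± 0.300 at 1 to 5 kb, 2.23 ± 0.143 at 5 to 20 kb, 1.63 ± 0.0565 at 20 to 100 kb and 1.66 ± 0.0182 at 100 kb or more (SD, n = 3). Myotube density stayed between 3.56 ± 0.131 and 3.79 ± 0.140 in these 5 classes, apart from the wider spread under 1 kb (3.63 ± 0.511), where MT replicate 2 was lowest; without it the mean there was 3.92.

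Scaled by total reads, the mean myotube level was nearly the same in every distance class. It was 1.70 ± 0.284 RPM per kb under 1 kb, 1.66 ± 0.179 at 1 to 5 kb, 1.65 ± 0.129 at 5 to 20 kb, 1.64 ± 0.1003 at 20 to 100 kb and 1.67 ± 0.0771 at 100 kb or more (SD, n = 3). The single MT libraries moved in opposite directions. From the nearest to the farthest class, MT replicate 2 rose from 1.38 to 1.71 RPM per kb. MT replicates 1 and 3 fell from 1.78 to 1.58 and from 1.93 to 1.71. Under 1 kb MT replicate 2 was below every MB library, of which the lowest was 1.63. The myoblast level fell over the same classes from 1.73 ± 0.167 to 0.996 ± 0.0705, 0.698 ± 0.0706, 0.489 ± 0.0680 and 0.406 ± 0.0433. The ratio of the group means moved from 0.978 to 4.10 as the myoblast level fell. MT peak calls chose the members, whose summed MT reads spanned only 11 to 22 (5th to 95th percentile). An even myotube level is therefore partly built in and is no result about distance. In the nearest class 690 of 1084 members (63.7%) had at least as much density over background in myoblasts as in myotubes, against 74 of 2736 (2.70%) in the farthest.

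**Figure D2:**
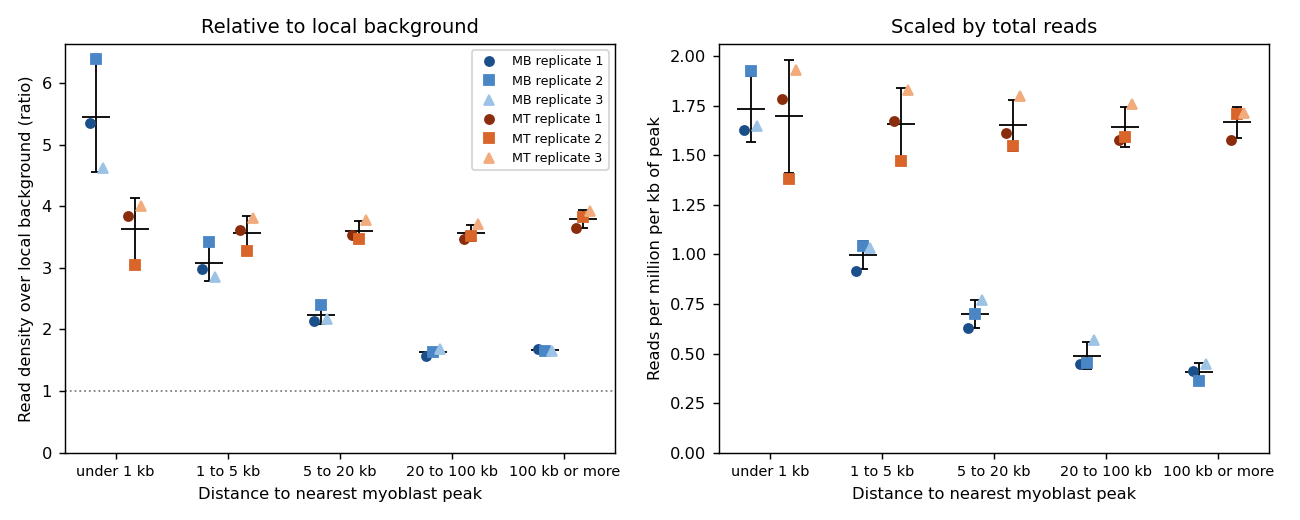
Read density of myotube-only peaks by distance to the nearest myoblast peak, relative to the local background (left) and in RPM per kb (right); points are the 3 libraries of each group, bars the mean and SD. Myotube points stay between 3.05 and 4.00 on the left in all classes, while myoblast means fall from 5.45 to 1.66.

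Members between neighbouring MB peaks had the most myoblast reads. An MB peak stood within 1 kb on both sides of 359 members, and there myoblast density was 7.20 ± 1.22 times the local background and myotube density 3.71 ± 0.721 (SD, n = 3), with MT replicate 2 at 2.87. Among the 39 members with at least 10 reads in each MB library, the 3 with the highest myoblast density all lay under 1 kb from an MB peak. At chr11:59029975-59030287 (mm9, 371 bp from an MB peak) the MB libraries had 36, 64 and 80 reads in 313 bp, and the MT libraries 4, 2 and 10. At chr17:65946417-65946744 the counts were 52, 56 and 45 in myoblasts and 7, 2 and 13 in myotubes. At chr8:98322988-98323352 they were 44, 80 and 81 against 6, 2 and 12. Myoblasts were the higher group in all 3 members, without overlap between the groups in RPM. The choice by MB reads and MB density favours this direction, so it is no result about the members.

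The rule has a sharp edge, overlap with an MB peak by at least 1 bp, and single regions on its 2 sides had counts of similar size. Just inside, chr8:119841882-119842042 and chrX:166363171-166363766 touched an MB peak with 0 bp between; the first had 1, 5 and 2 MB reads and 3, 2 and 8 MT reads, the second 7, 9 and 10 against 6, 8 and 19. The next, chr2:6685214-6685584, lay 1 bp away with 8, 8 and 9 against 8, 4 and 9. Just outside, with 1 bp shared and so not members, chr1:71691822-71692097 had 1, 4 and 6 against 3, 3 and 9 reads. At chr2:130244516-130244789 the counts were 4, 5 and 1 against 1, 3 and 7, and at chr13:9417215-9417544 3, 5 and 10 against 5, 4 and 13.

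Far from MB peaks the members were narrow maxima in both groups. Over the 5087 members at least 20 kb from an MB peak, density at the centre (the middle 100 bp) was 3.79 ± 0.133 times the local background in myotubes and 1.74 ± 0.0249 in myoblasts (SD, n = 3). The myoblast libraries stood at 1.72, 1.73 and 1.77. Between 200 and 500 bp from the centre the values had dropped to 1.22 ± 0.0157 and 1.15 ± 0.00842, and between 5 and 10 kb to 1.07 ± 0.0125 and 1.02 ± 0.00792. A small maximum was thus present in each of the 3 MB libraries at the place of the MT peak, although the rule kept only places without an MB peak. The local background counts every base of a window, so sequence to which reads cannot be mapped lowers it; the part this plays in values above 1 was not tested.

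**Figure D3:**
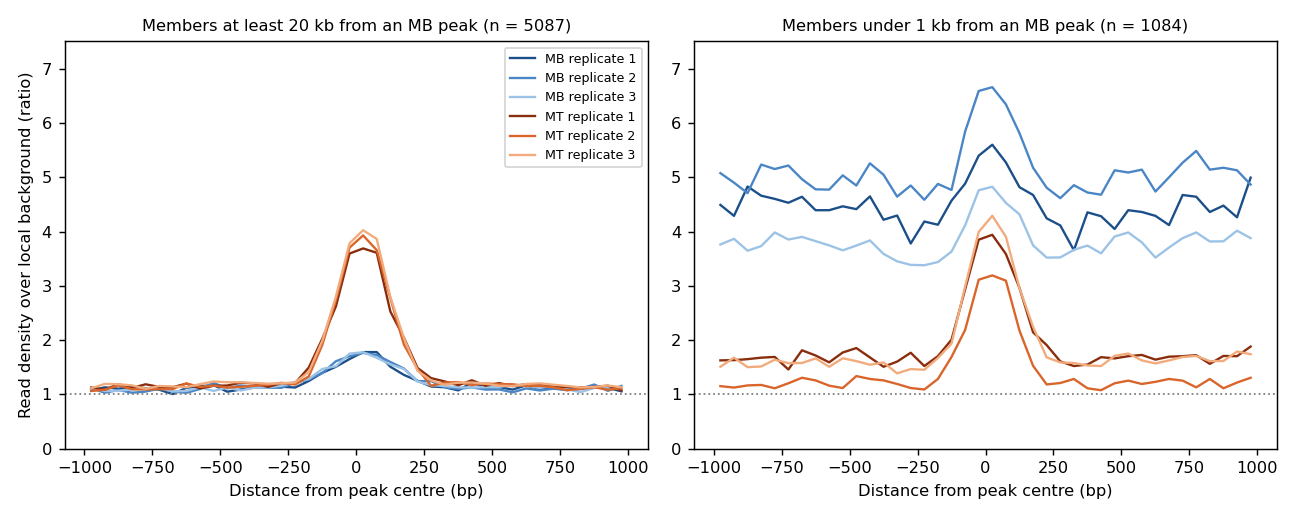
Read density over local background in 50 bp bins around the centres of myotube-only peaks, for members at least 20 kb from a myoblast peak (left, n = 5087) and under 1 kb from one (right, n = 1084), with reads moved to the nucleosome centre; each line is 1 library. On the left all 6 lines rise at the centre and are back near 1.2 within 500 bp; on the right the myoblast lines are above 3 throughout.

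Within 1 kb of an MB peak the surroundings differed. Between 500 and 1000 bp from the centre, myoblast density was 4.45 ± 0.613 times the local background and myotube density 1.51 ± 0.263, with MT replicates 1 and 3 at 1.68 and 1.63 and replicate 2 at 1.203. At the centre myotubes reached 3.73 ± 0.515 and myoblasts 5.64 ± 0.923 (SD, n = 3). Here the MT peak was a narrow rise over surroundings where myoblasts were high throughout.

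The rise did not extend over whole 10 kb windows. Windows with a member and no MB peak numbered 6243, and with the bases of MT peaks left out they had 1.09 ± 0.0140 times the local background in myotubes and 1.15 ± 0.0153 in myoblasts (SD, n = 3). Counted whole they had 1.16 ± 0.0151 and 1.17 ± 0.0160. Of the 6241 that passed a floor on low counts, 4929 were called higher and 70 lower in myotubes (limma voom, adjusted p under 0.05, scaled by total reads), where 70.9% of all windows tested were called higher and 13.1% lower. With no floor 4913 were higher and 68 lower, against 67.5% and 12.2% of all windows. Scaled by reads in peak-free windows, 185 were higher and 793 lower, against 1.37% and 19.4% of all windows.

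Region by region, most members were too shallow for the floor of 10 reads in 3 libraries, which 49 of 8521 passed. Of these, 8 were called higher and 29 lower in myotubes, where 0.0199% of all 65408 peak regions tested were called higher and 98.8% lower. A member could pass through its myoblast reads alone, so the 49 do not stand for the members as a whole. With no floor beyond 1 read, 4609 of 8521 were higher and 43 lower, against 3.16% and 78.5% of all 202362 regions. All 3 MT values exceeded all 3 MB values in 4691 members and the reverse held in 56, against 3.23% and 76.5% of all regions. Among peak-free 10 kb windows, which hold more reads each, 74.8% had all MT values above all MB values. With libraries scaled by reads in peak-free windows, the floor left 2 members higher and 33 lower, against 0.00306% and 99.9% of all regions, and without the floor (chosen after the data were seen) 1815 and 165, against 1.22% and 93%. On that scale 2324 members had all MT values above all MB values and 240 the reverse, against 1.57% and 89.7% of all regions. Nothing is read from these counts about the members, since the peak lists fixed their direction. When 1 library was dropped, the floor was lowered by 1 library. Dropping MB replicates 1, 2 and 3 gave 30, 16 and 17 higher members of 123, 73 and 77 tested. Over all regions 48 of 78906, 22 of 65107 and 27 of 73843 were higher. Dropping MT replicates 1, 2 and 3 gave 15, 40 and 8 higher members of 96, 120 and 59 tested. Over all regions 27 of 94765, 59 of 94855 and 10 of 82343 were higher. Called lower were 29 to 35 members and 63666 to 86833 regions.

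The members with the highest myotube density, among the 8 with at least 10 reads in each MT library, were few and of mixed kind. At chr6:24552632-24553385 (754 bp, 11881 bp from an MB peak) the MT libraries had 16, 12 and 29 reads and the MB libraries 3, 3 and 2, so the groups were far apart. Density over local background there was 6.77 ± 1.79 in myotubes (SD, n = 3). At chr8:64297035-64297870, 66305 bp from an MB peak, the counts were 17, 10 and 27 against 1, 0 and 2. At chr11:74200883-74201481 they were 10, 10 and 16 against 2, 6 and 7. In these 3 members every MT library was above every MB library in RPM. The choice by MT reads and MT density favours this direction, so it is no result about the members.

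The other 3 had more myoblast reads. The region chr17:31051052-31051708, 301957 bp from an MB peak, had 15, 19 and 23 MT reads and 1, 4 and 18 MB reads, with MB replicate 3 at 1.13 RPM and the lowest MT library at 1.59. At chr4:62165777-62166347 the counts were 12, 18 and 23 against 7, 4 and 19, and again the groups did not overlap in RPM. Over local background they overlapped in both regions, with MB replicate 3 at 4.68 and the lowest MT library at 4.14 on chromosome 17, and at 5.51 and 5.29 on chromosome 4. At chrX:166419343-166419914, first in rank with 9.48 ± 2.58 times the local background in myotubes (SD, n = 3), they were 11, 19 and 22 against 7, 12 and 23. Its MB libraries were at 6.90, 14.7 and 14.3, so this region stood above its surroundings in both cell states, and the groups overlapped.

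The widest members and the most remote one had every MT library above every MB library in RPM. The widest, chr8:46756451-46757400 (950 bp), had 16, 12 and 29 MT reads and 4, 9 and 17 MB reads. The next, chr2:76577673-76578522 (850 bp), had 13, 8 and 22 against 0, 3 and 11. Over local background the groups overlapped in both, with MB libraries at 1.55, 3.60 and 3.66 and MT libraries at 3.67, 2.52 and 4.15 in the widest, and 0, 1.199 and 2.44 against 3.16, 2.05 and 3.33 in the next. The member farthest from any MB peak, chr14:93589043-93589413, lay 5654 kb away and had 9, 8 and 7 MT reads, while 1 read in all came from the MB libraries. At the other end the narrowest member, chosen after its values were seen, spanned 14 bp at chr9:3023404-3023417 and still held 7, 4 and 8 MT reads and 1, 3 and 1 MB reads.

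Most members stood alone. Joined across gaps of up to 3 kb, 803 members (9.42%) formed 339 groups of 2 or more, and 94 members formed the 13 groups of 5 or more. Of the 5 largest groups, 3 lay side by side on chromosome 3. They spanned chr3:55084413-55091834 with 10 members, chr3:55096723-55111423 with 11 and chr3:55115337-55130628 with 11. With the group that follows, joined after the values were seen, they spanned 60.5 kb (chr3:55084413-55144881) and held 39 members and 2 MB peaks.

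Over these 60.5 kb the myoblast mean was above the myotube mean relative to the local background, with overlapping libraries. Density over local background was 3.27, 3.15 and 2.16 in MB replicates 1 to 3, and 2.45, 1.13 and 2.51 in MT replicates 1 to 3. In RPM the MB libraries had 54.8, 47.7 and 41.9 and the MT libraries 88.7, 34.0 and 84.3, so MT replicate 2 was below every MB library and MT replicates 1 and 3 were above. Between the MT peaks density was 2.58 ± 0.624 in myoblasts and 1.61 ± 0.663 in myotubes (SD, n = 3). Without MT replicate 2 the myotube mean was 2.48 over the whole stretch and 1.99 between the peaks. This joined stretch thus had read density above the local background in all 3 MB libraries. It also held 2 MB peaks, both inside 1 of its groups.

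**Figure D4:**
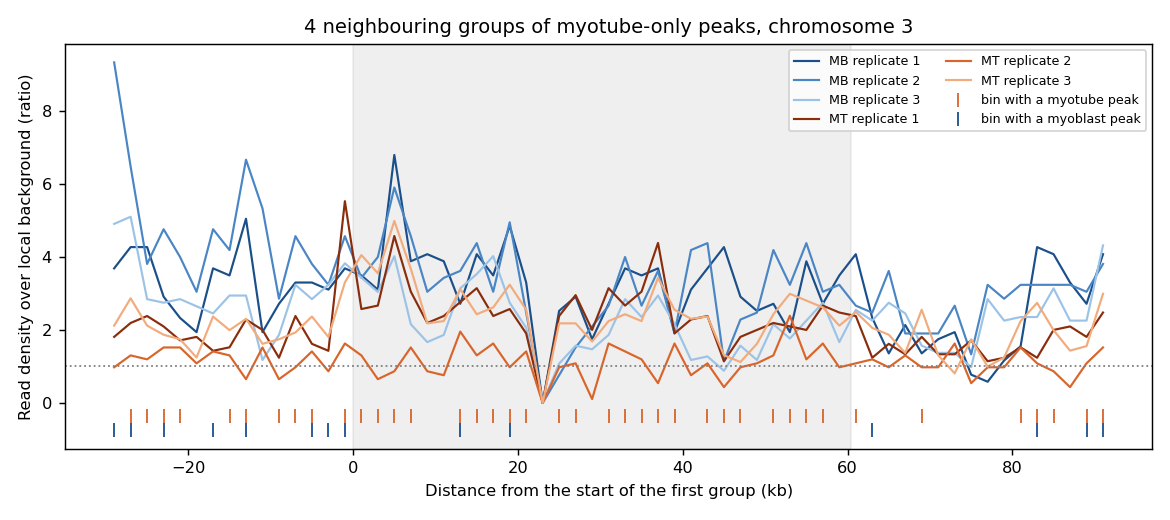
Read density over local background in 2 kb bins across 4 neighbouring groups of myotube-only peaks on chromosome 3, joined after the values were seen (grey, 60.5 kb), and 30 kb on either side; each line is 1 library, and ticks mark bins with a myotube or a myoblast peak. MB replicates 1 and 2 run mostly at or above MT replicates 1 and 3, MT replicate 2 runs near 1, and 1 bin at 23 kb has no read in any library.

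The group on chromosome 8 went the other way. At chr8:64288104-64298872 (10.8 kb, 10 members, 0 MB peaks), density over local background was 0.971, 0.584 and 1.16 in MB replicates 1 to 3. In MT replicates 1 to 3 it was 3.62, 1.55 and 3.04, so each MT library was above each MB library. Between the MT peaks it was 0.835 ± 0.478 in myoblasts and 1.95 ± 0.982 in myotubes (SD, n = 3), so the gaps held reads as well. MT replicate 2 was lowest there, at 0.878, within the range of the MB libraries. The fifth group, chr2:76977086-76989544 (8 members, 0 MB peaks), had 1.48, 1.77 and 1.65 in myoblasts and 2.29, 1.10 and 2.10 in myotubes. There MT replicate 2 was below all MB libraries, and the myotube mean without it was 2.20. In RPM it was above them, with 6.13, 6.29 and 6.98 in the MB libraries and 16.9, 7.46 and 14.6 in the MT libraries.

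Members were spread unevenly over the chromosomes, from 0.630 per Mb on chromosome 7 and 1.21 on chromosome 9 to 5.95 on chromosome 8 and 6.16 on chromosome 19, with 3.74 per Mb over all 18. Chromosomes with few members tended to have sparse peak-free windows. Relative to all 18 chromosomes it was 0.781 ± 0.0221 in myotubes on chromosome 7, 0.793 ± 0.0329 on X, 0.936 ± 0.0146 on 9, 1.09 ± 0.00571 on 8 and 1.13 ± 0.0166 on 19 (SD, n = 3). Across the 18 chromosomes, members per Mb and the MT density of peak-free windows had a Pearson r of 0.896 and a Spearman rho of 0.920. Without chromosomes 7 and X, the 2 farthest from the median, r was 0.864. With the MB density of the same windows r was 0.767, and with MB peaks per Mb 0.630. These are descriptions over 18 points that share the same libraries and peak lists; the part that background density plays in where peaks were called was not tested.

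Chromosome 9 had few members for its myoblast background. Its peak-free windows were at 1.03 ± 0.0196 in myoblasts and 0.936 ± 0.0146 in myotubes (SD, n = 3), and the 6 libraries did not overlap between groups. Members on the sparse chromosomes stood higher over their local background in myotubes: 4.26 ± 0.0596 on chromosome 7, 4.24 ± 0.0835 on 9 and 4.63 ± 0.170 on X, against 3.35 ± 0.155 on 8 and 3.50 ± 0.296 on 19. The median number of MT reads per member was 14 or 15 on every chromosome, and the median width 256.5 to 274 bp. These ratios divide by the local background, and the part it plays in the differences between chromosomes was not tested. On X, 63.3% of MT peaks were myotube-only, against 27.1% on chromosome 9. MB peaks numbered 23.0 per Mb on X and 83.6 on chromosome 9, and members 1.64 and 1.21 per Mb.

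**Figure D5:**
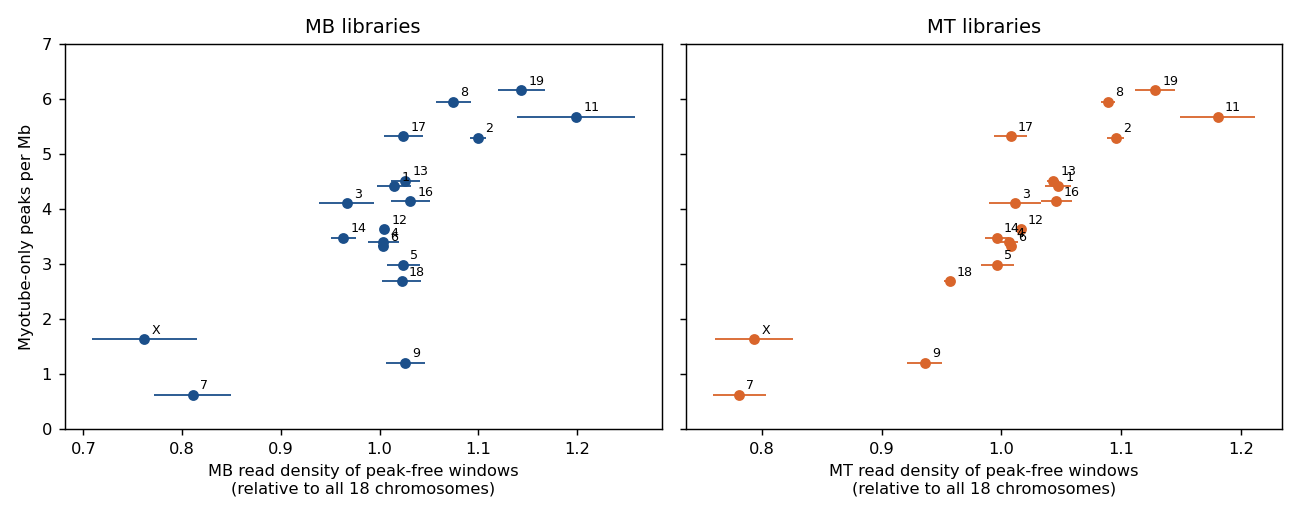
Myotube-only peaks per Mb (vertical axis) against the read density of peak-free 10 kb windows relative to all 18 chromosomes (horizontal axis, mean and SD of 3 libraries), for myoblasts (left) and myotubes (right); each point is 1 chromosome, named beside it. Chromosomes 7, 9 and X are lowest, and 8, 11 and 19 are among the highest in both peaks and myotube background.

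Members, like the other sets of MT peaks, lay where the background was dense. Peak-free windows within 250 kb of members had 1.28, 1.40 and 1.42 times the density of all peak-free windows in MB replicates 1 to 3 and 1.29, 1.22 and 1.33 in MT replicates 1 to 3. The difference between groups, -0.0881, had p = 0.3 (exact permutation test, two-sided, n = 3, where 0.1 is the smallest possible, so 0.05 could not be reached). The distance classes differed in direction. At 100 kb or more the MT libraries stood at 1.23, 1.21 and 1.25, all above the MB libraries at 1.13, 1.14 and 1.18. At 1 to 5 kb they stood at 1.32, 1.22 and 1.37, all below the MB libraries at 1.41, 1.601 and 1.58. These differences by class were not tested. At the members, the offset between plus-strand and minus-strand positions averaged 104 ± 4.36 bp over the MB libraries and 104 ± 3.79 bp over the MT libraries (SD, n = 3). An exact two-sided permutation test of it gave p = 1. No difference in this offset was detectable with 3 libraries a group. The 2 tests are reported without adjustment, since neither could pass.

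The other sets of MT peaks are given for comparison. The 3155 myotube-only peaks on chromosomes 10 and 15 with a local background had 3.26 ± 0.102 times that background in myotubes and 2.23 ± 0.120 in myoblasts. In myotubes their background was 1.48 ± 0.0405 times that of peak-free windows on the other 18 chromosomes (SD, n = 3). Around the members it was 1.28 ± 0.0535. On the same scale all peak-free windows of chromosomes 10 and 15 stood at 1.23 ± 0.0161 and 1.32 ± 0.0164 in myotubes. In RPM per kb they had 1.73 ± 0.0771 in myotubes and 0.678 ± 0.0772 in myoblasts, against 1.66 ± 0.105 and 0.714 ± 0.0413 in the members (SD, n = 3), with overlapping libraries, and the ratio of group means over local background was 1.47 in both sets. Their median width, 264 bp, was 1 bp below that of the members. The 11082 MT peaks on the 18 chromosomes that overlap an MB peak had 17.6 ± 3.74 in myoblasts and 4.06 ± 1.35 in myotubes, with MT replicate 2 at 2.51 and the others at 4.97 and 4.71. In the members MT replicate 2, at 3.51, was close to the other MT libraries. Around the overlapping peaks the background was 1.26 ± 0.0660 times that of peak-free windows on the 18 chromosomes in myotubes and 1.44 ± 0.0974 in myoblasts. Around the members it was 1.28 ± 0.0535 and 1.37 ± 0.0725 (SD, n = 3). The peak lists chose each of these sets, so these differences were not tested.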

How the data were processed

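The build is mm9, according to the submitters' processing notes. The authors deposited 1 list of read positions with strands per library and 1 peak list per group, with no score; the sources used here name no aligner, read filter, peak caller or pooling. No position and strand was repeated within a library (0 repeated lines); whether repeats were removed upstream is not stated. Positions were counted here per peak and per 10 kb window. Peak starts are given 1-based; whether the files count from 0 or 1 is not stated, so positions are exact to about 1 bp. The list of the union held 202362 regions, joined only where peaks shared a base. Local background used at least 5 peak-free windows within 250 kb. For profiles, reads were moved toward the nucleosome centre, by 75 bp on the plus strand and 29 bp on the minus strand.

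Fits used limma 3.58.1 (voom) in R 4.3.3 over all regions or windows, with Benjamini-Hochberg adjustment, a threshold of 0.05 and total-read scaling. The floor was 10 reads at the median library size in 3 libraries and 15 in all. The fit was tested on simulated data, drawn from regions and windows with more reads than most members hold. That test does not cover members below the floor, fits without it, or fits where most regions change. Counting and permutation tests ran in Python 3.11.15 with SciPy 1.17.1, pandas 2.3.3 and NumPy 2.4.6. Named regions were those with the highest MT density (6) or MB density (3) among members with at least 10 reads in each library of that group, the 2 widest, the farthest, the 3 on each side of the overlap rule and the 5 largest groups. The members and lists were chosen with earlier results of these data known. Genes and sequences are not given, since the annotation and sequences at hand are of GRCm38.p6.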

Additional observations from a re-analysis of the deposited data

How the results depend on the processing

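With 1 library left out at a time, density over local background was 2.36 to 2.55 in myoblasts and 3.56 to 3.71 in myotubes. By distance class, from nearest to farthest, the ranges were 4.98 to 5.87, 2.92 to 3.20, 2.15 to 2.28, 1.601 to 1.66 and 1.65 to 1.67 in myoblasts, and 3.44 to 3.92, 3.44 to 3.71, 3.50 to 3.66, 3.49 to 3.61 and 3.73 to 3.87 in myotubes. Against all peak-free windows the densities were 3.38 and 4.67. A radius of 100 kb gave 2.20 in myoblasts, and 2.71, 1.99 and 1.68 at 1 to 5 kb, 5 to 20 kb and 100 kb or more. Shifted positions gave 3.23 in myotubes, and 3.17, 3.18, 3.16 and 3.35 in the 4 classes from 1 kb on. The upper 50% by width gave 3.29 in myotubes. Members at least 1 kb from an MB peak had 1.99 in myoblasts and numbered 3.26 per Mb, and the median over members was 1.87 in myoblasts. Myotube density stayed above myoblast density under each of these settings over all members, and the cause of the shifts in level was not tested.

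Non-overlapping members were 2324 higher and 240 lower with peak-free scaling, where 1.57% and 89.7% of all regions were. With libraries thinned to equal depth, 3121 were higher and 41 lower. Leaving out 1 library, added after the data were seen, gave 5083 to 5618 higher and 71 to 119 lower. Fewer libraries can only raise or keep such counts. The share over all regions is not given for the thinned and left-out settings, so nothing is read from these counts. Peak-free scaling called 2 regions higher in all, both of them members, and 3204 windows higher, with 185 of the members' windows higher and 793 lower. Without the floor 6399 regions were higher and 158931 lower, with 4609 higher members. Peak-free scaling without the floor, chosen after the data were seen, gave 2471 and 188231, with 1815 higher and 165 lower members. Leaving out 1 library gave 10 to 59 higher and 63666 to 86833 lower regions, 8 to 40 higher and 29 to 35 lower members, 141985 to 160779 higher and 27684 to 30228 lower windows, and 4463 to 4950 higher and 30 to 86 lower windows of the members. The local background difference was -0.130 to -0.0595. The strand offset difference changed sign between -2.50 and 2.17 bp, and was 3.33 bp in the upper 50% by width.

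With a replicate block, 13 regions were higher and 64388 lower, with 9 higher and 29 lower members, so the block moved no count by over 1.5 times. Deviations of same-numbered libraries had correlations of 0.0489, -0.0157 and 0.0535 over regions, and replicate numbers were treated as names only. Depth limits single members, of which 49 of 8521 passed the floor.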
